A study of Mus musculus with 14 samples.

Results

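Of the 53465 genes in the deposited count table, 8 are genes of noradrenergic and enteric neurons, taken as the rows whose symbol is Dbh, Th, Phox2a, Hand2, Chga, Chgb, Ret or Tlx2. Each symbol was borne by a single row, and all 8 passed the filter on low counts in both fits described here. RNA was measured by polyA RNA-seq in 14 libraries from wild-type C57BL/6 mouse embryos. The 6 libraries titled AGM (aorta-gonad-mesonephros, the trunk region around the dorsal aorta) comprise 2 each at the labelled days E9.5, E10.5 and E11.5, sequenced in 2 rounds, and the labels give the tissue at E9.5 as the caudal part of the embryo. The 8 libraries of dorsal skin comprise 4 with titles beginning E and 4 with titles beginning ES, 1 each at day E9.5, E10.5, E12.5 or E14.5, here called skin E and skin ES. No group received a treatment or carried an allele other than wild type, and the sources used here do not say how many embryos went into a library. The p-values therefore rest on the spread between these libraries, which may be technical.

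Noradrenergic neurons of the sympathetic chain and the chromaffin cells of the adrenal medulla descend from trunk neural crest cells that gather beside the dorsal aorta, where signals from the aorta switch on a set of transcription factors that includes Phox2a and Hand2. Those factors act on the genes of noradrenaline synthesis, in which tyrosine hydroxylase (Th) makes L-DOPA from tyrosine and dopamine beta-hydroxylase (Dbh) turns dopamine into noradrenaline. Chromogranin A (Chga) and chromogranin B (Chgb) are acidic proteins of the dense-core granules in which catecholamines are stored. The receptor tyrosine kinase Ret takes signals of the GDNF family through GFRA co-receptors and is needed by the vagal crest cells that make the enteric nervous system, and also by the nephric duct as the ureteric bud forms. Tlx2 is a homeobox gene of enteric, sympathetic and sensory neurons that enteric neurons need for normal numbers in the mouse colon.

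The promoters of the 2 catecholamine enzymes and the 2 chromogranins are shown as examples. These 4 genes were all lower in AGM at the labelled E11.5 than at E9.5, as were Phox2a and Tlx2, which are not shown. Each line gives 300 bases, from 250 before to 50 after the start site in the RefSeq table, on the gene's own strand in GRCm38.p6, with the letters TGACG (and TGACGTCA where the full palindrome is present) and TAAT in capitals on either strand. Th lies at chr7:142899946-142900245 (minus strand), Dbh at chr2:27165257-27165556 (plus strand), Chga at chr12:102554691-102554990 (plus strand) and Chgb at chr2:132781392-132781691 (plus strand). These start sites are not the outer ends of the gene spans printed with the values: that of Th lies well inside the span, those of Dbh and Chgb lie downstream of its start, and distances here are counted from the RefSeq start site.
Th: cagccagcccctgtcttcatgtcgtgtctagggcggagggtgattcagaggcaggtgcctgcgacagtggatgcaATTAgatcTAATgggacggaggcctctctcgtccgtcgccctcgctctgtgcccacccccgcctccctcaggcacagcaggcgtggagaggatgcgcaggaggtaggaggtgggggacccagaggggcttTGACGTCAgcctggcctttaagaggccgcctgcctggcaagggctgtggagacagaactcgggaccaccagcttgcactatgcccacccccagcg
Dbh: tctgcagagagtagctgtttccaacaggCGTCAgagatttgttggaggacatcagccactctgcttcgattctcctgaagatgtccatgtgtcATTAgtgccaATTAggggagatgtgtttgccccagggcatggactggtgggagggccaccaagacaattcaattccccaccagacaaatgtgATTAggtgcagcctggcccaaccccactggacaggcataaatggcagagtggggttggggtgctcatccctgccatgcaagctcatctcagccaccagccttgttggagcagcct
Chga: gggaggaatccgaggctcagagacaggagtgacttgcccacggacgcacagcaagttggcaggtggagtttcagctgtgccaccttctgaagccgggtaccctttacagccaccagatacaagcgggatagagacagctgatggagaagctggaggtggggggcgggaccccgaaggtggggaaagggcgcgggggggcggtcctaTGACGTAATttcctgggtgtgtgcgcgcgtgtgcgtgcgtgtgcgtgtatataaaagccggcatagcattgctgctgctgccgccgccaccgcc
Chgb: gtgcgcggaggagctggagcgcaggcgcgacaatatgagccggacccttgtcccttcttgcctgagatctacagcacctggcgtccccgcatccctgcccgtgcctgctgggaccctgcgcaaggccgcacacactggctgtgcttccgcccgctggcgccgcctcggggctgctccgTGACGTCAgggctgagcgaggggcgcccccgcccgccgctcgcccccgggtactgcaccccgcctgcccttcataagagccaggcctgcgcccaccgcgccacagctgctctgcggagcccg

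The palindrome TGACGTCA, the cyclic AMP response element, began 45 bases before the RefSeq start site of Th and 72 bases before that of Chgb. It was present in 1.79% of the 32817 promoter windows of the same length. Its first part, TGACG, was also found 44 bases before the RefSeq start site of Chga, where it is followed by TAAT, and on the reverse strand 222 bases before that of Dbh, and 20.8% of all windows held it on either strand. The Dbh window held 3 copies of TAAT, the core of many homeodomain binding sites, all on the reverse strand, and 58% of all windows held at least 1. A match to the E-box CANNTG, the letters read by factors of the Hand family's class, was found in each of the 4 windows and in 72.3% of all windows. RefSeq windows were matched for 6 of the 8 genes, namely the 4 shown, Hand2 and Phox2a. None was matched for Ret or Tlx2. Hand2 also held TGACG, 37 bases before its RefSeq start site. Phox2a, which was also lower at the labelled E11.5, held neither TGACG nor TAAT, and its only match was an E-box. The matches are letters in a window, and binding was not measured.

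The libraries held 21527400 to 29534551 counts in AGM, 19929352 to 24003912 in skin E and 6770338 to 15440012 in skin ES. The labelled order of the AGM days went against several genes with a known course in the embryo. Tbx6 and Msgn1, genes of the tailbud and presomitic mesoderm, stood at 21.8 and 10.54 CPM (the count divided by the library's total and scaled to 1000000) and at 7.13 and 3.35 CPM in the 2 libraries labelled E11.5, against at most 1.12 and 0.0339 CPM in the 4 libraries labelled E9.5 or E10.5. Lin28a, an RNA-binding protein gene of early embryonic cells, stood at 22.99 and 40.9 CPM in the AGM libraries labelled E9.5, 122 and 129 CPM in those labelled E10.5 and 571 and 496 CPM in those labelled E11.5. In skin E it ran the other way over the days, at 366, 84.6, 0.667 and 0.94 CPM. Hbb-bt, an adult globin gene, stood at 139 and 61.3 CPM, at 35.5 and 28.7 CPM and at 3.42 and 3.16 CPM over the same labelled AGM days, whereas in skin E it stood at 2.71, 13.03, 59.2 and 1350 CPM. The embryonic globin gene Hbb-bh1 showed no order over the labelled AGM days, at 3312 and 2652 CPM, 3283 and 3018 CPM, and 2380 and 3813 CPM. The days of the AGM libraries are therefore called labelled days throughout, and every direction between them rests on those labels. In addition the columns of the second AGM round carry sample numbers only and were placed by assumption on the day that a first-round label ties to that number. Among skin libraries, the epidermal keratins Krt5 and Krt14 were low in skin E at E9.5 and E10.5 (3.36 and 3.52 CPM, and 0.652 and 0.484 CPM) and reached 1722 and 459 CPM at E14.5, whereas in skin ES they stayed at or under 1.62 and 0.142 CPM at each day, E14.5 included. The collagen gene Col1a1 lay between 1610 and 2647 CPM in skin ES, against 231 and 118 CPM in skin E at E9.5 and E10.5. The skin ES libraries are described apart.

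**Figure D1:**
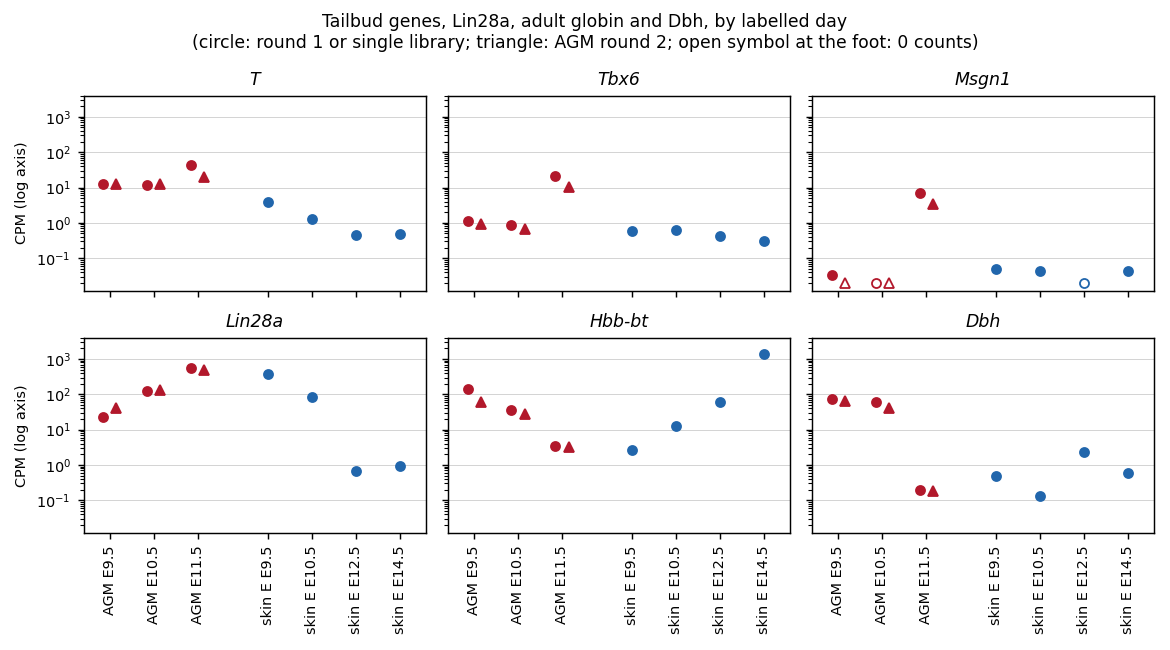
CPM on a log axis for T, Tbx6 and Msgn1 (tailbud and presomitic mesoderm), Lin28a, the adult globin gene Hbb-bt and Dbh in the 6 AGM libraries (red) and the 4 skin E libraries (blue), 1 point a library. Lin28a climbs to 571 and 496 CPM over the labelled AGM days and drops to 0.667 and 0.94 CPM at the last 2 skin E days, and Dbh has its lowest AGM values, 0.201 and 0.186 CPM, in the libraries labelled E11.5.

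The summed level of the 8 genes was 244 and 210 CPM in the AGM libraries labelled E9.5 (rounds 1 and 2), 196 and 152 CPM in those labelled E10.5 and 78.5 and 76.8 CPM in those labelled E11.5. In skin E the sum was 61.7 CPM at E9.5, 78.7 CPM at E10.5, 128 CPM at E12.5 and 6.94 CPM at E14.5, and in skin ES it lay between 4.42 and 6.35 CPM. The genes were thus highest together in the AGM libraries labelled E9.5 and nearly absent from skin ES. In tissue RNA, fewer cells of a type and less RNA per cell cannot be told apart, and this holds for each level given here.

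**Figure D2:**
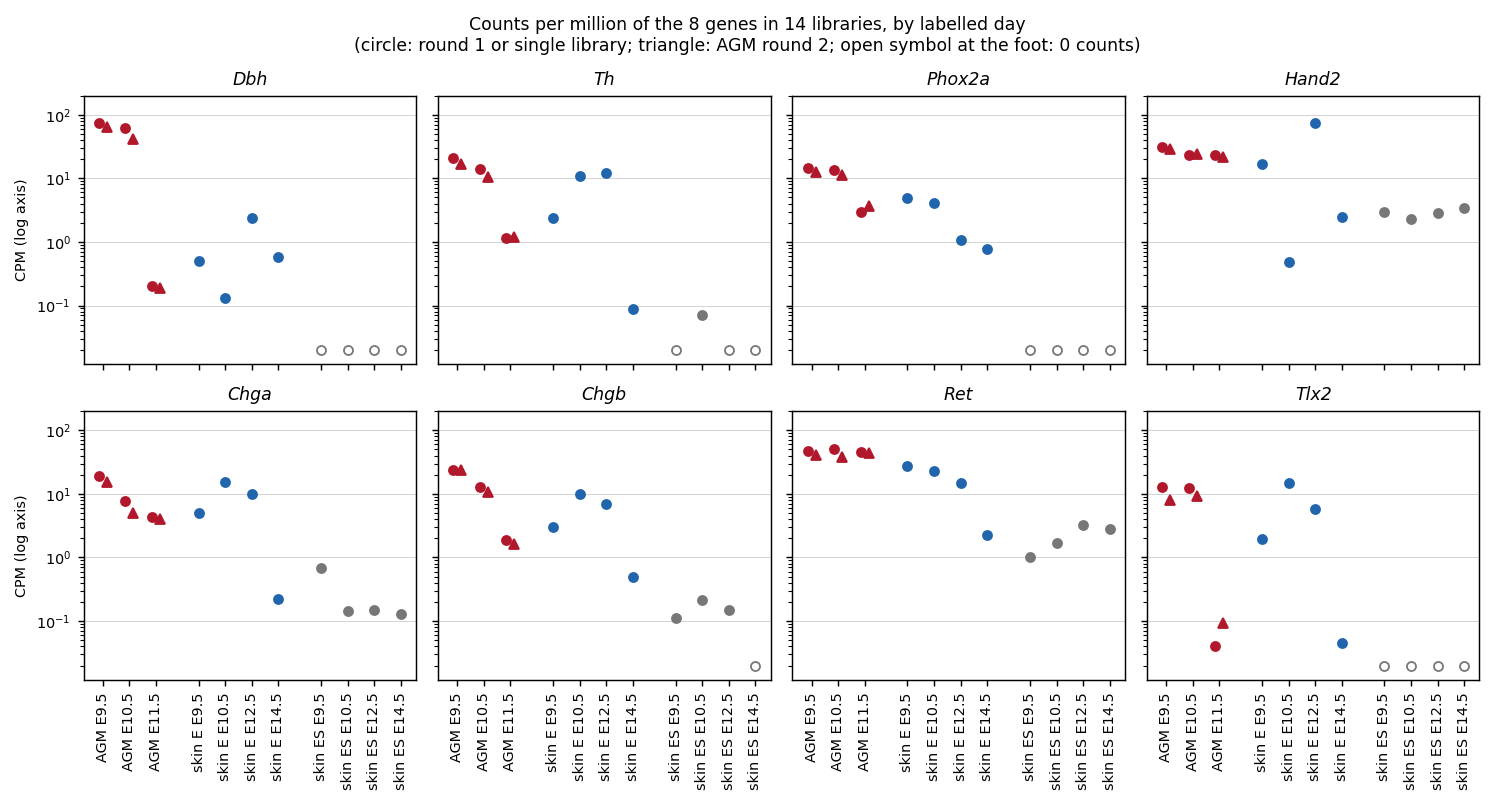
CPM (log axis) of each of the 8 genes in all 14 libraries, with AGM in red (rounds as circle and triangle), skin E in blue and skin ES in grey; open symbols mark 0 counts. Dbh, Th, Phox2a, Chgb and Tlx2 drop in the AGM libraries labelled E11.5, whereas Ret keeps to between 38.5 and 51.2 CPM in all 6 AGM libraries.

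Over the labelled AGM days, 5 of the 8 genes were lower at E11.5 than at E10.5 and 6 were lower than at E9.5, among them both enzymes, Phox2a, Chgb and Tlx2. Since the labels give the E9.5 tissue as the caudal part of the embryo, day and dissected part cannot be told apart in any comparison with E9.5. Dbh and Tlx2 were close to undetected at the labelled E11.5, and the counting intervals of their ratios overlapped. These calls are from a fit without the AGM round as a block, in which Hand2 and Ret did not pass the test in either comparison. With the block, Hand2 passed for E11.5 against E9.5 (edgeR adjusted p = 0.00643) and Chga for E11.5 against E10.5 (adjusted p = 0.0203). Without it, edgeR's quasi-likelihood test was run with Benjamini-Hochberg adjustment over 17613 genes. It called 27.2% of genes for E11.5 against E10.5 (11.8% higher, 15.4% lower) and 45.2% for E11.5 against E9.5 (21.1% higher, 24% lower). The median log2 change of the 8 genes was -2.23 against E10.5 and -2.74 against E9.5, and that of all tested genes was 0.0035 and -0.0039.

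Among the transcription factors, Phox2a (ENSMUSG00000007946; GRCm38 chromosome 7, 101818313 to 101822726, plus strand), the homeodomain factor of noradrenergic cells, had 14.49 and 12.53 CPM at the labelled E9.5, 13.4 and 11.4 CPM at E10.5 and 2.98 and 3.62 CPM at E11.5. Both E11.5 libraries lay below the other 4. The log2 change was -1.83 ± 0.18 (SE; edgeR adjusted p = 3.463e-04) for E11.5 against E10.5 and -1.89 ± 0.18 (adjusted p = 1.401e-04) for E11.5 against E9.5. On the opposite strand Phox2a shares 95 of its 2035 exonic bases with Inppl1. The sources used here do not say whether counting used the strand, so reads in that stretch cannot be told apart.

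Hand2 (ENSMUSG00000038193; chromosome 8, 57320983 to 57324633, plus strand), a basic helix-loop-helix factor of sympathetic neurons, heart and limb bud, had 31.7 and 29.3 CPM, 23.5 and 23.9 CPM, and 22.96 and 21.6 CPM at the 3 labelled days in order. The days did not overlap, but those labelled E10.5 and E11.5 lay close together. The change for E11.5 against E9.5 was -0.30 ± 0.11 on the log2 scale (edgeR adjusted p = 0.0540), and the adjusted p was 0.00643 with the AGM round as a block. Hand2 shares 461 of its 2351 exonic bases with the antisense gene Hand2os1, so part of its count is uncertain for the same reason as in Phox2a.

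Tlx2 (ENSMUSG00000068327; chromosome 6, 83068324 to 83070293, minus strand) had 12.97 and 8.01 CPM at the labelled E9.5, 12.4 and 9.33 CPM at E10.5 and 0.0403 and 0.0929 CPM at E11.5. The last 2 values are 1 and 2 counts. The E9.5 and E10.5 libraries overlapped, and the E11.5 libraries lay far below them. By summed counts the E11.5 level was 0.00597 of that at E10.5 (95% counting interval 0.00123 to 0.0175), and the edgeR adjusted p was 7.139e-05.

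Dbh (ENSMUSG00000000889; chromosome 2, 27165233 to 27183200, plus strand) had 74.7 and 64.5 CPM at the labelled E9.5, 61.0 and 42.2 CPM at E10.5 and 0.201 and 0.186 CPM at E11.5, the last being 5 and 4 counts. No E11.5 library came near the other 4. The log2 change was -7.93 ± 0.32 for E11.5 against E10.5 (edgeR adjusted p = 1.117e-05) and -8.31 ± 0.32 for E11.5 against E9.5 (adjusted p = 5.11e-06). By summed counts the E11.5 level was 0.00378 of the E10.5 level (95% counting interval 0.00173 to 0.00719). Th (ENSMUSG00000000214; chromosome 7, 142892752 to 142931128, minus strand), the rate-limiting enzyme of the pathway, had 20.7 and 16.7 CPM at the labelled E9.5, 14.03 and 10.7 CPM at E10.5 and 1.17 and 1.21 CPM at E11.5. Its 3 days did not overlap. The log2 change was -3.28 ± 0.23 for E11.5 against E10.5 and -3.83 ± 0.23 for E11.5 against E9.5, with edgeR adjusted p-values of 7.7e-05 and 2.029e-05.

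In the fit without a block, the chromogranins were the 2 of the 8 genes called lower between the first pair of labelled days, and 3 others were called with the AGM round as a block, as given after their values. Chga (ENSMUSG00000021194; chromosome 12, 102554969 to 102565028, plus strand) had 18.8 and 15.3 CPM at the labelled E9.5, 7.67 and 5.04 CPM at E10.5 and 4.27 and 4.04 CPM at E11.5. Chgb (ENSMUSG00000027350; chromosome 2, 132781278 to 132795079, plus strand) had 23.9 and 23.6 CPM, 12.7 and 10.8 CPM, and 1.89 and 1.63 CPM at the same days. Neither gene's days overlapped. For E10.5 against E9.5, Chga changed by -1.37 ± 0.22 (edgeR adjusted p = 0.0288) and Chgb by -0.95 ± 0.14 (adjusted p = 0.0239) on the log2 scale, where 2.59% of all genes were called (0.874% higher, 1.72% lower). For E11.5 against E10.5, Chgb changed by -2.64 ± 0.18 (adjusted p = 6.1e-05) and Chga by -0.52 ± 0.23 (adjusted p = 0.141, 0.0203 with the round as a block and 0.0476 without round 2 of E10.5). Both early calls depended on which libraries were kept. In fits without 1 AGM library the log2 change kept its sign, from -1.715 to -1.085 for Chga and from -1.089 to -0.828 for Chgb, but calls were lost. Without round 1 of E9.5 the adjusted p of Chga was 0.173 and that of Chgb 0.146, without round 2 of E10.5 they were 0.169 and 0.193, and without round 1 of E10.5 that of Chgb was 0.0579.

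With the AGM round as a block, 5 of the 8 genes were called for E10.5 against E9.5 and 4237 genes in all, against 457 without it. The added members were Dbh at a log2 change of -0.39 (edgeR adjusted p = 0.00433), Th at -0.55 (adjusted p = 0.00506) and Hand2 at -0.31 (adjusted p = 0.0169). Without the block their adjusted p-values were 0.290, 0.151 and 0.179. In the fit without a block, 2 of 10 other regulators were lower, Gata2 (-1.44) and Isl1 (-0.74). Of 9 tested catecholamine genes 1 was lower, the noradrenaline transporter Slc6a2 (-3.60). Of 12 genes of the Ret and Trk systems it was the artemin co-receptor Gfra3 (-0.91). Of 9 enteric crest genes it was the endothelin receptor Ednrb (-0.60), and of 9 tested granule genes 0 were called. None was higher, and 2.59% of all genes were called (0.874% higher, 1.72% lower). The number of genes called in this comparison depended on which libraries were kept.

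Ret (ENSMUSG00000030110; chromosome 6, 118151745 to 118197718, minus strand) had 47.0 and 40.4 CPM at the labelled E9.5, 51.2 and 38.5 CPM at E10.5 and 45.0 and 44.5 CPM at E11.5. All 3 days overlapped. The change for E11.5 against E9.5 was 0.18 ± 0.15 on the log2 scale (edgeR adjusted p = 0.371).

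**Figure D3:**
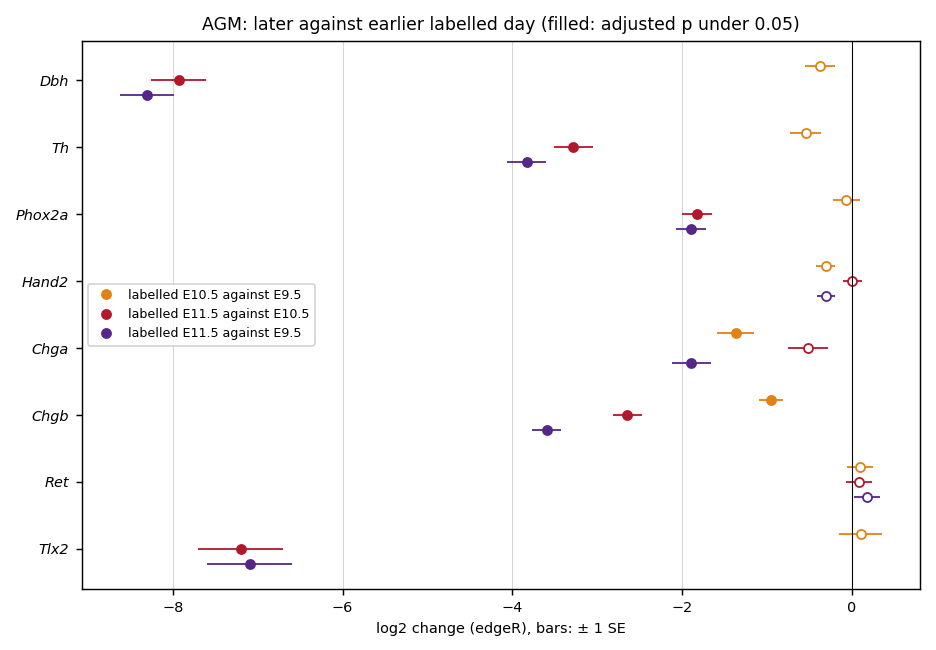
Log2 change between labelled AGM days for each of the 8 genes from edgeR (6 AGM libraries, round not used as a block), with bars of 1 SE and filled points where the adjusted p was under 0.05. For the labelled E11.5 against E10.5, Dbh lies at -7.93 and Tlx2 at -7.20, while the points of Ret and Hand2 lie close to 0 and are open in each comparison.

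Levels of different genes were set side by side per kilobase of annotated exon. At the labelled E9.5, Dbh averaged 25.9 CPM per kb and Hand2 12.96 CPM per kb, with no overlap between rounds. Chgb (8.65 CPM per kb) and Th (7.91 CPM per kb) followed and overlapped each other. Phox2a, Tlx2, Ret and Chga lay between 6.18 and 6.64 CPM per kb, which is a narrower range than that between the rounds of any of the 4. At the labelled E11.5 the order was Hand2 (9.48 CPM per kb), Ret (6.61), Phox2a (1.62), Chga (1.51), Chgb (0.642), Th (0.503), Dbh (0.0719) and Tlx2 (0.0421), and of these neighbours Phox2a and Chga overlapped. Dbh had therefore moved from the first place to the last but 1.

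The genes that surround these 8 in the pathway were mostly lower too at the labelled E11.5. Of 10 other sympathoadrenal regulators, 1 was higher and 7 lower than at E9.5, where 45.2% of all genes were called (21.1% higher, 24% lower). They include Gata2, a zinc finger factor, which changed by -2.45 ± 0.29 on the log2 scale (edgeR adjusted p = 4.016e-04), Isl1, a LIM homeodomain factor of autonomic and sensory neurons, at -2.04 ± 0.11, and Gata3 at -1.29 ± 0.14. Hand1, the relative of Hand2 that also marks lateral mesoderm, was the one that rose, at 2.01 ± 0.24, with 42.3 and 39.9 CPM at E11.5 against 13.2 and 9.25 CPM at E9.5. The median log2 change of this list was -1.15.

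Of 9 tested genes of catecholamine synthesis and handling, 6 were lower and 1 higher at the labelled E11.5 than at E9.5, against 24% and 21.1% of all genes, with a median log2 change of -0.999. Gch1, which makes the cofactor of tyrosine hydroxylase, changed by -2.42 ± 0.29, Slc6a2, the noradrenaline transporter, by -2.10 ± 0.37, Cyb561, a granule cytochrome, by -1.94 ± 0.18, and Slc18a2, a vesicular monoamine transporter, by -1.09 ± 0.16. Maoa, which breaks monoamines down in many cell types, was the one that rose, by 0.45 ± 0.14. Pnmt, which makes adrenaline in chromaffin cells, lay between 0.0403 and 0.372 CPM in AGM and was filtered out. Of 9 tested genes of dense-core granules and neuropeptides, 5 were lower and 1 higher, against the same shares of all genes, with a median of -1.21. Pcsk1, a prohormone convertase, rose by 3.53 ± 0.32, with 3.59 and 4.23 CPM at E11.5 against 0.44 and 0.288 CPM at E9.5. Pcsk1n, an inhibitor of that enzyme, changed by -2.44 ± 0.38. Secretogranin II (Scg2) had 0.0806 and 0.0464 CPM, or 3 counts in all, against 2.44 and 0.904 CPM.

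Among 12 ligands and receptors of the Ret and Trk systems, 10 were lower at the labelled E11.5 than at E9.5, against 24% of all genes, while Ret itself was not called. Gdnf, the ligand that signals through Ret, had 2.58 and 3.58 CPM against 12.3 and 13.2 CPM (-1.91 ± 0.20, edgeR adjusted p = 2.261e-04). Its co-receptor Gfra1 had 10.52 and 11.6 CPM against 46.4 and 42.7 CPM (-1.87 ± 0.12). Artn, the ligand of the co-receptor Gfra3, changed by -1.72 ± 0.21 and Ntrk3, the receptor of neurotrophin 3, by -1.90 ± 0.19. The median of the list was -1.18. Of 9 genes of enteric neural crest, 2 of which are also on the regulator list, 6 were lower, against the same 24%. L1cam, an adhesion molecule of migrating crest cells and axons, changed by -2.13 ± 0.13, and Edn3, the ligand of the endothelin receptor Ednrb, by -1.16 ± 0.14. Ednrb itself had 39.9 and 44.1 CPM against 46.5 and 43.7 CPM, which did not pass.

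**Figure D4:**
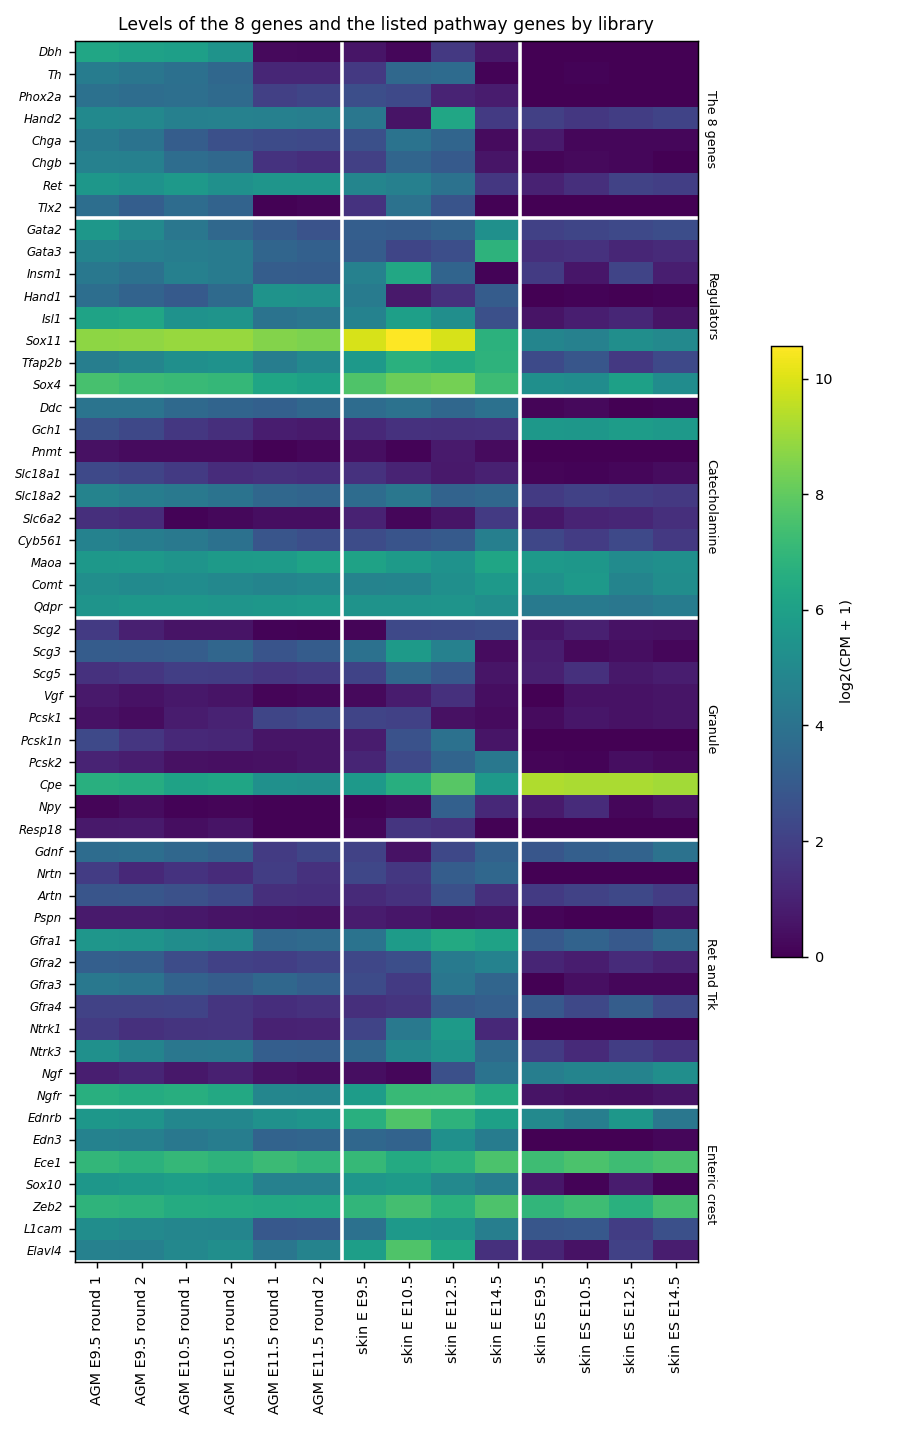
Heat map of log2(CPM + 1) for the 8 genes and genes of the 5 pathway lists in all 14 libraries, with lists divided by horizontal lines and AGM, skin E and skin ES by vertical ones. Dbh, Th and Tlx2 turn dark in the AGM libraries labelled E11.5, and Sox10 is dark in the 4 skin ES libraries.

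Markers of other cell types differed over the same labelled days, in a comparison in which 45.2% of all genes were called (21.1% higher, 24% lower). For E11.5 against E9.5 in AGM, 8 of 8 tested sympathetic and chromaffin markers (4 of them among the 8 genes) were lower, with a sum of 30.3 to 32.8 CPM against 163 to 186 CPM. Crest and Schwann precursor markers were lower in 4 of 6 and higher in 1 (77.8 to 85.4 CPM against 151 to 164 CPM). Sensory neuron markers were higher in 3 of 6 and lower in 3, and their sum (29.7 to 33.1 CPM against 76.0 to 81.4 CPM) is mostly Isl1, which is also a regulator above. Without Isl1 the other 5 summed to 14.6 to 16.1 CPM against 5.26 to 6.16 CPM. Spinal motor neuron markers were lower in 3 of 6 and higher in 1 (20.6 to 22.6 CPM against 79.9 to 80.9 CPM), and without Isl1 their sums overlapped (5.52 to 5.62 CPM against 4.73 to 10.09 CPM). Nephric markers were lower in 3 of 8 and higher in 2 (265 to 316 CPM against 192 to 202 CPM). Without Sall1, which had 179 to 231 CPM against 42.9 to 46.2 CPM, the other 7 summed to 85.0 to 85.9 CPM against 149 to 156 CPM. Limb bud and lateral plate markers were lower in 4 of 7 and higher in 1 (176 to 202 CPM against 432 to 454 CPM). Adrenal cortex markers were lower in 2 of 3 tested (6.41 to 6.53 CPM against 22.0 to 25.8 CPM), with Cyp11a1 at 0 at E11.5. The remaining lists were called in shares near that of all genes. Heart muscle markers were higher in 2 of 4 (27.1 to 66.9 CPM against 14.9 to 23.3 CPM). Endothelial and blood markers were lower in 2 of 4 (122 to 158 CPM against 142 to 182 CPM). Epidermal and dermal markers were higher in 2 of 5 (458 to 466 CPM against 441 to 891 CPM), a sum that is mostly Col1a1. Without Col1a1 the other 4 summed to 13.1 to 21.2 CPM against 4.81 to 5.18 CPM. The part of these cell types in the levels of the 8 genes was not tested.

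Set against skin E of the same labelled day, AGM labelled E9.5 was higher in all 8 genes. The match of days rests on the AGM labels, which give the E9.5 tissue as the caudal part of the embryo. When AGM labelled E11.5 was set against the same skin E library, 6 of the 8 genes did not pass, as given below. In the edgeR fit of 10 libraries over 19945 genes, 33.9% of genes were called in this comparison, 18.0% of all genes as higher and 15.9% as lower in AGM. Each skin E day is 1 library that was assumed to vary like the AGM pairs, and tissue and sequencing project cannot be told apart. Dbh had 74.7 and 64.5 CPM in AGM against 0.502 CPM in skin E, a log2 difference of 7.05 ± 0.40 (edgeR adjusted p = 1.685e-05). Chgb had 23.9 and 23.6 CPM against 2.96 CPM (2.95 ± 0.23), and Th had 20.7 and 16.7 CPM against 2.41 CPM (2.91 ± 0.29). These were the widest gaps of the 8. Tlx2 differed by 2.37 ± 0.39, Chga by 1.74 ± 0.30, Phox2a by 1.42 ± 0.24 and Hand2 by 0.79 ± 0.15, with adjusted p-values between 0.00282 and 0.00458. Ret had 47.0 and 40.4 CPM against 27.0 CPM, a log2 difference of 0.64 ± 0.20 (adjusted p = 0.0378). That call was lost without round 1 of AGM E9.5 (adjusted p = 0.127), without round 1 (0.0525) or round 2 (0.0530) of AGM E11.5, and in limma-voom (0.0523).

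At E10.5, by the AGM labels, the 8 genes divided. Dbh, Phox2a, Hand2 and Ret were higher in AGM, Chga was higher in skin E, and Th, Chgb and Tlx2 did not pass, where 24% of all genes were called (11.7% higher and 12.2% lower in AGM). Dbh had 61.0 and 42.2 CPM in AGM against 0.132 CPM (3 counts) in skin E, a ratio of 389 by summed counts (95% counting interval 133 to 1886; edgeR adjusted p = 1.101e-05). Hand2 had 23.5 and 23.9 CPM against 0.484 CPM (5.61 ± 0.24, adjusted p = 3.084e-06), Phox2a 13.4 and 11.4 CPM against 4.09 CPM (1.61 ± 0.24) and Ret 51.2 and 38.5 CPM against 23.2 CPM (0.96 ± 0.20). In all 4 both AGM libraries lay above the skin library. Chga had 7.67 and 5.04 CPM in AGM against 15.5 CPM in skin E (-1.27 ± 0.26, adjusted p = 0.00901). Th had 14.03 and 10.7 CPM against 10.7 CPM (0.22 ± 0.23), and Chgb 12.7 and 10.8 CPM against 9.82 CPM (0.27 ± 0.19). Tlx2 had 12.4 and 9.33 CPM against 14.8 CPM (-0.43 ± 0.31, adjusted p = 0.357, and 0.0264 with the round as a block). Skin E at E10.5 thus held more Chga than AGM labelled E10.5 and almost no Dbh. Its Th, Chgb and Tlx2 did not pass the test against AGM without the block.

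Other markers differed beside these values, with the AGM days again those of the labels. Of all genes, 33.9% were called at E9.5 (18.0% higher and 15.9% lower in AGM). At E10.5, 24% were called (11.7% higher and 12.2% lower). At E10.5 all 6 sensory neuron markers were lower in AGM than in skin E (50.4 to 52.3 CPM in sum against 237 CPM, and 8.91 to 9.87 CPM against 176 CPM without Isl1), as were 4 of 6 spinal motor neuron markers (51.2 to 55.9 CPM against 112 CPM, and 10.7 to 12.51 CPM against 51.4 CPM without Isl1). All 7 limb bud and lateral plate markers were higher in AGM (297 to 347 CPM against 104 CPM), among them Tbx5, at 13.7 and 6.78 CPM against 0.044 CPM, which is 1 count. Nr5a1, the steroidogenic factor of the adrenal and gonad primordium, had 9.71 and 7.32 CPM in AGM against 0.088 CPM in skin E. Their part in the levels of Hand2, Th, Chga, Chgb and Tlx2 was not tested. Of the dense-core granule and neuropeptide list, 8 of 10 genes were lower in AGM at E10.5 than in skin E, with a median log2 difference of -2.001, among them Pcsk2 (-3.39 ± 0.32), Scg2 (-3.08 ± 0.53), Scg3 (-2.59 ± 0.21) and Resp18 (-2.36 ± 0.42). At E9.5, 4 of the same list were higher in AGM and 3 lower. Of the Ret and Trk list, 8 of 12 were higher in AGM at E9.5, and at E10.5 4 were higher and 3 lower. Of the 10 regulators, 3 were higher and 4 lower in AGM at E9.5, and 3 higher and 6 lower at E10.5. Of the catecholamine list 3 of 10 were higher at E9.5 and 1, Cyb561 (1.51 ± 0.24), at E10.5, with 0 lower on either day. Those counts are no more than the share of all genes called in either direction. Of the 9 genes of the enteric crest list 2 were higher and 2 lower at E9.5, and 3 higher and 5 lower at E10.5.

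**Figure D5:**
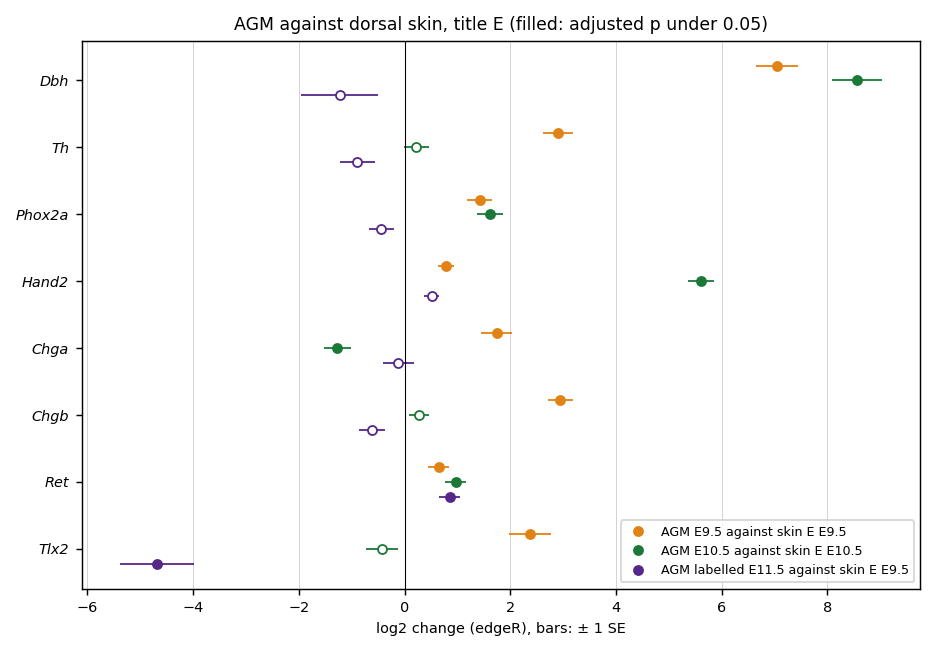
Log2 difference of AGM over skin E for the 8 genes from edgeR (10 libraries), with bars of 1 SE and filled points where the adjusted p was under 0.05. AGM days are those of the labels. At E9.5 all 8 points lie above 0, at E10.5 Dbh (8.57) and Hand2 (5.61) stand apart from the rest, and for AGM labelled E11.5 against skin E at E9.5 only the points of Ret and Tlx2 are filled.

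The change between E9.5 and E10.5 also differed between the tissues in 5 of the 8 genes, where 7.67% of all genes were called (2.63% positive, 5.04% negative). AGM change minus skin E change was -2.69 ± 0.36 for Th, -3.01 ± 0.39 for Chga, -2.67 ± 0.29 for Chgb, -2.80 ± 0.49 for Tlx2 and 4.82 ± 0.29 for Hand2 on the log2 scale, with edgeR adjusted p-values between 3.873e-04 and 0.0137. For the first 4 the skin E library at E10.5 was above that at E9.5 while AGM was lower or overlapped, and for Hand2 skin E was lower by a large margin. The AGM days enter this comparison by their labels, and a single skin library stands for each day.

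Since the AGM libraries labelled E11.5 held early-embryo genes, they were also set against skin E at E9.5, a comparison chosen after seeing the data. There 6 of the 8 genes did not pass, although Th (adjusted p = 0.0359) and Hand2 (0.0108) did with the AGM round as a block in edgeR. Ret was higher (45.0 and 44.5 CPM in AGM against 27.0 CPM in skin E; 0.85 ± 0.20, edgeR adjusted p = 0.0420) and Tlx2 lower (1 and 2 counts in AGM against 39 counts in skin E; ratio 0.0331, 95% counting interval 0.00654 to 0.104, adjusted p = 0.00648), with 6.85% of all genes called (4.06% higher, 2.79% lower). Dbh had 0.201 and 0.186 CPM against 0.502 CPM and Th 1.17 and 1.21 CPM against 2.41 CPM. Both calls are fragile. Without round 1 of AGM E11.5 the adjusted p of Ret was 0.131 and that of Tlx2 0.0514, and without round 2 that of Ret was 0.121.

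In skin E the genes followed different courses over the days, and each day is a single library with no replicate check. In the order of the days, Th had 2.41, 10.7, 12.0 and 0.0895 CPM, the last being 2 counts. Chga had 4.92, 15.5, 10.04 and 0.224 CPM, Chgb 2.96, 9.82, 7.04 and 0.492 CPM, and Tlx2 1.96, 14.8, 5.75 and 0.0448 CPM (1 count). These 4 stood highest at E10.5 or E12.5 and lowest at E14.5. Phox2a had 4.87, 4.09, 1.08 and 0.761 CPM and Ret 27.0, 23.2, 14.7 and 2.24 CPM, both in falling order. Dbh had 0.502, 0.132, 2.37 and 0.582 CPM and Hand2 17.1, 0.484, 75.5 and 2.51 CPM. For both, the E12.5 library was the highest and E10.5 the lowest.

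Ratios of single skin E libraries carry 95% intervals that cover counting error only. At E10.5, 4 of the 8 genes were at least 2-fold above E9.5 and 2 at least 2-fold below, where 16.4% of all genes were 2-fold apart in either direction. Tlx2 was 7.56-fold higher (5.42 to 10.8) and Th 4.44-fold higher (3.25 to 6.19), while Hand2 at E10.5 was 0.0284 of its E9.5 level (0.0140 to 0.0514). The other 3 past that limit were Chga, Chgb and Dbh, and the ratio of Dbh, 0.263, had an interval that included 1 (0.0465 to 1.02). At E12.5 against E10.5, 2 were higher and 2 lower (29.0% of all genes were 2-fold apart). Hand2 was 156-fold higher (86.9 to 313) and Dbh 18.0-fold higher (5.85 to 89.8), while Phox2a stood at 0.265 (0.164 to 0.412) and Tlx2 at 0.389 (0.317 to 0.475) of their E10.5 levels. At E14.5 against E12.5, 7 of the 8 were at least 2-fold lower, where 28.8% of all genes were 2-fold apart in either direction, and Phox2a, at 0.703 of its E12.5 level, had an interval that included 1 (0.358 to 1.35). Chga at E14.5 stood at 0.0223 (0.00717 to 0.0528) and Hand2 at 0.0332 (0.0250 to 0.0433) of the E12.5 level.

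Cell type markers in skin E moved beside these values. The summed sensory neuron markers stood at 71.5, 237, 160 and 7.34 CPM over the 4 days in order, and the spinal motor neuron markers at 41.7, 112, 45.1 and 5.55 CPM. The limb bud and lateral plate markers stood at 218, 104, 1012 and 484 CPM. Prrx1 made up 701 CPM of that sum at E12.5, its own highest day, and the other 6 summed to 112, 3.87, 311 and 112 CPM. The members ran apart. Tbx5 had 19.7, 0.044, 179 and 1.25 CPM, the same order of days as Hand2. Gata4, Gata6 and Hand1 instead stood highest at E9.5, at 32.7, 29.45 and 20.2 CPM, against 1.67, 11.16 and 1.75 CPM at E12.5. Epidermal and dermal markers rose to 13070 CPM at E14.5, of which Col1a1 made up 10470 CPM and the other 4 summed to 2605 CPM. Crest and Schwann precursor markers summed to 148, 254, 238 and 222 CPM while their members ran apart: Erbb3, a neuregulin receptor, had 46.3, 38.8, 95.5 and 157 CPM, and the other 5 summed to 102, 215, 143 and 65.4 CPM. Their part in the course of the 8 genes was not tested.

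In the 4 skin ES libraries Dbh, Phox2a and Tlx2 had 0 counts throughout and Th had a single count, at E10.5. At these depths 0 counts allow up to 0.340, 0.214, 0.443 and 0.194 CPM in the order of the days (3 counts a library). Chga lay between 0.130 and 0.680 CPM and Chgb between 0 and 0.214 CPM. Hand2 had 2.95, 2.28, 2.81 and 3.37 CPM and Ret 1.02, 1.71, 3.25 and 2.85 CPM, on 9 to 52 counts a library.

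The genes whose log2(CPM + 1) ran most like that of each of the 8 over the 14 libraries were ranked among 13438 genes by Pearson's r, as a description, since libraries of a tissue share their source and sequencing project. Closest to Dbh were Wt1os (r = 0.991) and Nr5a1, closest to Th and Chgb alike was Wbp1 (r = 0.992 and 0.985), and closest to Phox2a was Dlx2 (r = 0.982). Closest to Chga was Rimbp2 (r = 0.977), to Ret Chtf8 (r = 0.986) and to Tlx2 Ano8 (r = 0.974). Without the 4 skin ES libraries, the 3 nearest genes of Dbh were the same 3, whereas those of Ret shared none with its first 3.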

How the data were processed

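The authors deposited 1 table of raw read counts per gene, and per the submitters' processing notes the tools named are Trimmomatic 0.36, STAR 2.5.0a, featureCounts 1.6.0 and DESeq2 1.20.0 with GRCm38 (mm10). Strand setting and annotation release are not given in the sources used here. Counts were tested with edgeR 4.0.16 (R 4.3.3): TMM scaling, filterByExpr, quasi-likelihood F test and Benjamini-Hochberg adjustment over all tested genes, with a threshold of 0.05. The AGM fit used 6 libraries and the AGM against skin E fit 10, each with 3 residual degrees of freedom. CPM was computed on the library's total count, and counting intervals are exact at 95% and cover counting error only. Depth was 21527400 to 29534551 counts in AGM. Skin days were compared without a test.

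The second-round AGM columns were matched to days through sample numbers. The round, a sequencing project in the labels, was taken to pair the AGM libraries, since the deviations of libraries of the same round correlated at 0.625, 0.534 and 0.430 over 14568 genes. The fits behind the results had no term for the round, so differences between rounds entered their spread. The round was used as a block in an alternative, which called more genes in every comparison.

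The 8 genes, the pathway lists and the marker lists were chosen with earlier results of these data known. Named list genes were at most 4 a list and comparison, those with the largest change among those past the threshold; others named were chosen after their values were seen. Gene positions are those in the deposited table's build, and 53274 of 53465 IDs were found in GENCODE M21. The fits were run on simulated data with the same spread for all genes and libraries and no effect of the round. That run could not check whether skin E varies like AGM, or what leaving out the round does. Alternatives were DESeq2 1.42.0, limma 3.58.1 (voom), size factors, no filter, the round as a block and fits without each AGM library. Others were all 14 libraries with skin E and skin ES of a day as replicates, and skin ES in place of skin E. Some genes of the lists and of the likeness ranking are not reported here. Marker sums without the highest gene of a list were added after seeing the data.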

Additional observations from a re-analysis of the deposited data

Results flagged for a closer look

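In 5 of the 8 genes the change between E9.5 and E10.5 differed between the tissues in a test of the difference itself, added after seeing the data. AGM change minus skin E change on the log2 scale was -2.69 for Th, 4.82 for Hand2, -3.01 for Chga, -2.67 for Chgb and -2.80 for Tlx2, with edgeR quasi-likelihood adjusted p-values of 0.00543, 3.873e-04, 0.00487, 0.00305 and 0.0137. The AGM days are those of the labels, and each skin E day is 1 library.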

How the results depend on the processing

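For AGM E10.5 against E9.5, 929 genes were called by DESeq2, 1769 with no filter and 4237 (5 of the 8 genes) with the AGM round as a replicate block, against 457 (2 of the 8). With the block 8491 genes were called for AGM E11.5 against E10.5, 10234 for AGM E9.5 against skin E, 8491 for AGM E10.5 against skin E, 4454 (4 of the 8) for AGM E11.5 against skin E E9.5 and 5137 for the difference of changes. Besides the changes given with the results, the block changed no other call of the 8 genes. With no filter 2622 genes were called for AGM E11.5 against skin E E9.5 and 2651 for the difference of changes. For AGM E11.5 against skin E E9.5, 1 of the 8 genes was called with size factors and 0 with limma-voom, which called 1099 genes, with 4083 at an unadjusted p under 0.05.

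Leaving out 1 AGM library at a time gave 1 to 477 genes (0 to 2 of the 8) for E10.5 against E9.5, with 24 without round 1 of E9.5, 104 without round 1 of E10.5 and 1 without round 2 of E10.5. It gave 2794 to 4566 (5 to 6) for E11.5 against E10.5, 5557 to 7548 (6 in each fit) for E11.5 against E9.5, 4685 to 6457 (7 to 8) and 3195 to 4675 (5 in each) for AGM against skin E at E9.5 and E10.5, 760 to 1417 (0 to 2) for AGM E11.5 against skin E E9.5, and 930 to 1561 (5 in each) for the difference of changes.

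In a fit of all 14 libraries, skin E and skin ES of the same day were pooled as replicates. The difference between the titles thus entered the spread used for every comparison, the AGM days included. There edgeR called 0 genes in the 7 comparisons, hence 0 of the 8. At an unadjusted p under 0.05 there were 27, 485, 1133, 950, 847, 1074 and 62 genes. With skin ES in place of skin E, 13270, 13508 (8 of the 8) and 13795 (6 of the 8) genes were called for the 3 AGM comparisons and 4 (0 of the 8) for the difference of changes. Among genes called with either skin title, log2 values then turned their direction for Chga (5.16) and Tlx2 (10.67) at E10.5. In AGM E11.5 they turned for Th (7.56), Phox2a (9.03), Chga (2.46), Chgb (3.75) and Tlx2 (3.49, on 1 and 2 counts against 0). In the difference of changes they turned for Chga (0.80) and Tlx2 (0.0998). With skin ES, Tlx2 in AGM E11.5 and both genes in the difference of changes did not pass. The cause of the turns was not tested.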
